A study of Mus musculus with 6 samples.

Results

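The 9 genes described here encode ligands of the tumour necrosis factor (TNF) superfamily that helper T cells make: Cd40lg, Tnfsf11, Tnfsf8, Tnfsf14, Tnf, Lta, Ltb, Fasl and Tnfsf10. They were taken by gene symbol from a table of 24470 genes, in which each has 1 row, and all 9 were among the 11666 genes that passed the filter on low counts. RNA had been sequenced from naive CD4+ T cells, taken from male C57BL/6J mice (spleen and skin-draining lymph nodes) and purified with magnetic beads. All 6 samples were stimulated for 6 h on plastic coated with antibodies to CD3 and CD28, which engage the T cell receptor complex and its main costimulatory receptor. In the CCL19 group, 3 samples also received recombinant mouse CCL19, a ligand of the chemokine receptor CCR7, and 3 samples without it formed the NoCKN group. The sources used here give neither the age of the mice nor the CCL19 dose, and no sample without the antibodies was analysed here.

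TNF superfamily ligands assemble into trimers. Most are made as membrane proteins, and several of these are also cut from the surface to act in solution. Each engages one or a few receptors of the TNF receptor superfamily, which recruit TRAF adaptor proteins or death-domain adaptors and so switch on NF-kB and MAP kinase signalling or apoptosis. In helper T cells many of these ligands are absent or low at rest and appear within hours of antigen receptor stimulation, and through them the T cell acts on B cells, dendritic cells, macrophages and stroma.

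The libraries held between 16978736 and 27429898 counts assigned to genes. The labels do not say whether the replicates were separate mice or wells, so each p-value is set against the spread of these samples only, and that spread may be technical. In bulk RNA, fewer cells making a transcript and less of it per cell cannot be told apart. Transcripts listed as markers of T cells, Cd4 among them, were high in every library, with Cd3e between 315 and 353 CPM (counts scaled to a common library size with edgeR's TMM factors). Cd3d stood at 219 to 276 CPM with CCL19 and at 267 to 299 CPM without it, and Cd3g at 223 to 265 and 248.5 to 283 CPM. Of the 7 such markers listed, 2 had a log2 fold change above 0 and 5 below. Cd4 stood at 542 to 592 CPM with CCL19 and at 603 to 695 CPM without it, and Cd5 at 682 to 791 and 614 to 699 CPM. The 6 B cell markers listed summed to between 15.8 and 20.4 CPM with CCL19 and to between 19.8 and 22.9 CPM without it. The 7 myeloid markers summed to between 7.94 and 14.3 CPM with CCL19 and to between 9.07 and 15.4 CPM without it, and the 5 dendritic cell markers to at most 4.67 CPM in any library. Of the 3 regulatory T cell markers listed, Foxp3 stood between 9.93 and 10.9 CPM in all libraries. Ikzf2 stood at 12.95 to 16.0 CPM with CCL19 and at 13.5 to 17.0 CPM without it. Tnfrsf4, which activated helper T cells also express, stood at 114 to 122 CPM with CCL19 and 92.6 to 103 CPM without. DESeq2 called 1 of the 3 higher and none lower (6.55% and 5.6% of all genes with an adjusted p). The endothelial gene Pecam1, also found on T cells, stood at 190 to 242 and 232 to 276 CPM, with Ccl21a and Pdpn of stroma at 0. The 6 NK cell markers summed to between 26.9 and 31.2 CPM with CCL19 and to between 28.15 and 32.2 CPM without it. Prf1 alone stood at 16.9 to 20.2 CPM over all libraries. The 2 CD8 T cell markers summed to between 12.4 and 17.2 CPM with CCL19 and to between 14.6 and 15.0 CPM without it. The part of such cells, or of the Cd4 difference, in the ligand counts was not tested.

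With CCL19, 8 of the 9 ligand transcripts had a fitted fold change above 1 (background 49.8% of tested genes), and Ltb had one below 1 (background 50.2%). By edgeR's quasi-likelihood test, none of the 9 passed a Benjamini-Hochberg adjusted p of 0.05, and neither did any of the 11666 genes tested (0%). The lowest edgeR adjusted p of any gene was 0.0505, just above the threshold, and 5 of the ligand genes shared it. At an unadjusted edgeR p under 0.05, 7 ligand genes stood higher (background 14.5% of tested genes) and 1, Ltb, lower (background 13%). DESeq2 called 5 ligand genes higher, Cd40lg, Tnfsf11, Tnfsf8, Lta and Fasl, and none lower, where it called 12.2% of the genes it gave an adjusted p to, 6.55% higher and 5.6% lower. In the authors' deposited table, which lists 1168 genes (4.77% of the 24470), these 5 are marked as higher and the other 4 are absent. The submitters' processing notes name DESeq2, and all 1168 listed genes were among the DESeq2 calls made here, so the authors' deposited table is not independent of them. Limma-voom passed none of the 9 and none of all genes at the adjusted threshold, with 27.7% of genes at an unadjusted p under 0.05. The 3 CCL19 libraries lay above all 3 NoCKN libraries for the same 5 genes (background 15.3%) and below them for Ltb (background 14.5%), 29.8% of tested genes having no overlap in one direction or the other. Log2 fold changes are edgeR's unless another fit is named. The median of the 9 was 0.37, against -0.0007 over all tested genes.

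**Figure D1:**
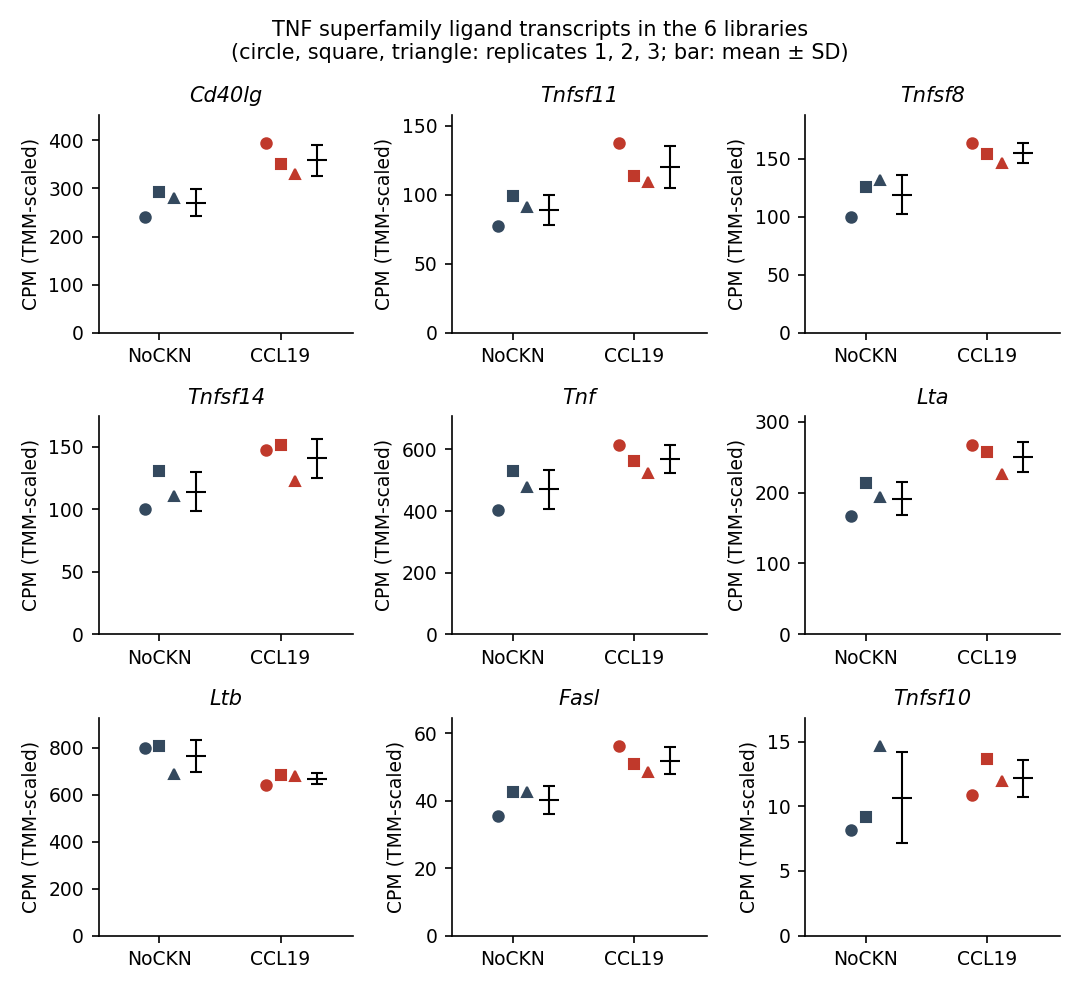
Level of each ligand transcript in CPM (TMM-scaled, vertical axis from 0) in the 3 NoCKN and 3 CCL19 libraries, with the mean and SD of each group. The CCL19 libraries lay above all NoCKN libraries for Cd40lg, Tnfsf11, Tnfsf8, Lta and Fasl and below them for Ltb, and the groups overlapped for Tnfsf14, Tnf and Tnfsf10.

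Cd40lg encodes CD40 ligand, the signal by which helper T cells license dendritic cells and drive B cell proliferation and class switching. It lies on chromosome X (NCBI Gene 21947, plus strand, 57212143 to 57224042 in mm10). Cd40lg stood at 394, 351 and 329 CPM in CCL19 replicates 1, 2 and 3 and at 240, 292 and 281 CPM in NoCKN replicates 1, 2 and 3. The lowest CCL19 library, replicate 3, lay above the highest NoCKN library, replicate 2. The means were 358 ± 32.8 and 271 ± 27.5 CPM (SD, n = 3), or 0.40 ± 0.09 (SE) as a log2 fold change (edgeR adjusted p = 0.0505, DESeq2 adjusted p = 0.00309).

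Tnfsf11 encodes RANKL, the ligand of RANK, known as the osteoclast differentiation factor and as a survival signal that T cells give to dendritic cells (chromosome 14, NCBI Gene 21943, minus strand, 78277446 to 78308043). It stood at 137, 114 and 109 CPM in the CCL19 libraries and at 77.2, 98.7 and 91.4 CPM in the NoCKN libraries, in replicate order. The groups did not overlap, and the extremes were the libraries numbered 1 in each group. Tnfsf11 had the highest fitted change of the 9, 0.43 ± 0.10 on the log2 scale (SE; edgeR adjusted p = 0.0505, DESeq2 adjusted p = 0.00644). Its interval, from 1.16-fold to 1.57-fold at 95%, overlapped that of each of the other 7 ligands with a positive change.

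Tnfsf8 encodes CD30 ligand, which binds CD30 on activated lymphocytes (chromosome 4, NCBI Gene 21949, minus strand, 63832824 to 63861284). Its level was 163, 155 and 146 CPM with CCL19 and 100, 125 and 132 CPM without it. The groups did not overlap, and the CCL19 libraries varied less among themselves (SD 8.59 CPM) than the NoCKN libraries (SD 16.8 CPM, n = 3 each). The log2 fold change was 0.38 ± 0.10 (SE; edgeR adjusted p = 0.0505, DESeq2 adjusted p = 0.0098).

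Tnf, Lta and Ltb sit side by side on chromosome 17 in the major histocompatibility complex. Tnf encodes the inflammatory cytokine TNF, Lta encodes lymphotoxin alpha, which as a secreted homotrimer binds the TNF receptors, and Ltb encodes lymphotoxin beta, which holds lymphotoxin alpha at the cell surface in a heterotrimer that binds the lymphotoxin beta receptor. In mm10, Ltb (NCBI Gene 16994) runs on the plus strand from 35194507 to 35196305, Tnf (NCBI Gene 21926) on the minus strand from 35199367 to 35202007 and Lta (NCBI Gene 16992) on the minus strand from 35203165 to 35205351. The gap between Ltb and Tnf is 3061 bp and that between Tnf and Lta is 1157 bp. The 250 bases before each start are shown because the fitted changes of these neighbours differed in sign. With all libraries, Ltb passed in neither edgeR nor DESeq2, and no link of these bases to the changes was tested. The sequences are those of RefSeq for GRCm38.p6, at chr17:35202008-35202257 (minus strand) for Tnf, chr17:35205352-35205601 (minus strand) for Lta and chr17:35194257-35194506 (plus strand) for Ltb. Capitals mark matches, on either strand, to the NFAT core GGAAA, the AP-1 motif TGANTCA, the TATA box TATAAA and the NF-kB consensus site.
Tnf: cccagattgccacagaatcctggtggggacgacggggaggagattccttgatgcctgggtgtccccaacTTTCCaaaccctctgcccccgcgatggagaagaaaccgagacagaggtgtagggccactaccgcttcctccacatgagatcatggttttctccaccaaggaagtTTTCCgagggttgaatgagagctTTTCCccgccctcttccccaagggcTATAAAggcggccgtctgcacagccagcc
Lta: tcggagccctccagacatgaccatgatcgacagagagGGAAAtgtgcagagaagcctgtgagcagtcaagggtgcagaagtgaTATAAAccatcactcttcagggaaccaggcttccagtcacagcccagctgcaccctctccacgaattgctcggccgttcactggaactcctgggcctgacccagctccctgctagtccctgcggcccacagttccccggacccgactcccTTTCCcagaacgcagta
Ltb: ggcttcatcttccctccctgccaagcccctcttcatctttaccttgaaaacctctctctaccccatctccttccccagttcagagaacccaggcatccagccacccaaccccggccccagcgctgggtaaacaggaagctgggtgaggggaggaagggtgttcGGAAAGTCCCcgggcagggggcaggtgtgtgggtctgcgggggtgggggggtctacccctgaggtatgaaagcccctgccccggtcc
The NFAT core occurred at 3 places before Tnf, 2 before Lta and 1 before Ltb, and each of the 8 ligand genes with a promoter in the table had at least 1, as did 55.6% of 32851 promoters of this length. The TATA box letters lay at -29 to -24 from the Tnf start and at -167 to -162 from the Lta start, and 3 of the 8 ligand promoters held them, the third being that of Tnfsf11, as did 12.4% of all promoters. The NF-kB consensus matched before Ltb, where it overlaps the NFAT core, and before none of the other 7 (7.25% of promoters). AP-1 matched before Tnfsf14 alone of the 8 (6.75% of promoters). Cd40lg was not among the promoters matched. These are matches of letters in a short window, and no binding was measured.

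Lta stood at 268, 257 and 227 CPM in CCL19 replicates 1, 2 and 3 and at 167, 213 and 194 CPM in the NoCKN libraries. All 3 CCL19 libraries lay above the highest NoCKN library, replicate 2, by at least the distance from 213 to 227 CPM. The log2 fold change was 0.39 ± 0.10 (SE; edgeR adjusted p = 0.0505, DESeq2 adjusted p = 0.00618). Tnf stood at 616, 563 and 525 CPM with CCL19 and at 405, 531 and 477 CPM without it. Here the groups overlapped, because NoCKN replicate 2 lay above CCL19 replicate 3. The log2 fold change of Tnf was 0.27 ± 0.10 (SE; edgeR adjusted p = 0.112, DESeq2 adjusted p = 0.0564), and the 95% interval of the fold ran from 1.04 to 1.40. Without NoCKN replicate 1 the log2 fold change of Tnf was 0.17 (edgeR).

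Ltb was the one ligand transcript that stood lower with CCL19. It was measured at 641, 682 and 680 CPM in the CCL19 libraries and at 797, 806 and 686 CPM in the NoCKN libraries. NoCKN replicate 3, at 685.8 CPM, lay just above the highest CCL19 library, replicate 2, at 682.3 CPM. The log2 fold change was -0.19 ± 0.09 (SE; edgeR adjusted p = 0.165, DESeq2 adjusted p = 0.0891), with a 95% interval of the fold from 0.77 to 0.994. Of the DESeq2 fits that each left out a library, only that without NoCKN replicate 3 called Ltb lower (adjusted p = 0.0208, with 13.2% of genes called). In the others the DESeq2 adjusted p of Ltb lay between 0.0991 and 0.28. Of the other genes that start within 50 kb of Tnf, Nfkbil1 averaged 19.3 ± 0.913 CPM in the CCL19 and 23.6 ± 1.49 CPM in the NoCKN libraries (SD, n = 3; edgeR adjusted p = 0.0782). Ddx39b, an RNA helicase gene, stood at 510.0 ± 13.6 and 481 ± 5.06 CPM (edgeR adjusted p = 0.492). Lst1 and Atp6v1g2 were tested with overlapping groups, and Aif1 had between 1 and 5 counts in a library. The microRNA genes Mir6973a and Mir6974 lie inside Ltb and Lta on the same strand, with 27 to 100 and 15 to 36 counts per library, and the sources used here do not say how reads shared with them were assigned.

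Tnfsf14 encodes LIGHT, which binds both the herpesvirus entry mediator on lymphocytes and the lymphotoxin beta receptor on stroma (chromosome 17, NCBI Gene 50930, minus strand, 57189474 to 57194181). It stood at 148, 152 and 123 CPM with CCL19 and at 101, 131 and 111 CPM without it. The groups overlapped, since CCL19 replicate 3 lay below NoCKN replicate 2. The log2 fold change was 0.30 ± 0.10 (SE; edgeR adjusted p = 0.0864, DESeq2 adjusted p = 0.0509). The 95% interval of the fold ran from 1.06 to 1.44.

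Fasl and Tnfsf10 encode the death ligands FasL and TRAIL. Fasl (chromosome 1, NCBI Gene 14103, minus strand, 161780691 to 161788495), the ligand by which T cells kill Fas-bearing cells and limit their own expansion, stood at 56.3, 51.0 and 48.6 CPM with CCL19 and at 35.6, 42.6 and 42.7 CPM without it. The groups did not overlap, and the log2 fold change was 0.37 ± 0.09 (SE; edgeR adjusted p = 0.0505, DESeq2 adjusted p = 0.0161). Tnfsf10 (chromosome 3, NCBI Gene 22035, plus strand, 27317077 to 27339665), whose product induces apoptosis through the TRAIL receptor, was the lowest of the 9, with between 181 and 364 counts in a library. It stood at 10.9, 13.7 and 11.9 CPM with CCL19 and at 8.14, 9.21 and 14.7 CPM without it. NoCKN replicate 3 was the highest library of all and the other NoCKN libraries were the lowest, so the groups overlapped. The log2 fold change of Tnfsf10 was 0.21 ± 0.18 (SE; edgeR adjusted p = 0.481). The 95% interval of the fold, 0.881 to 1.52, includes both no change and the fold of Fasl. Without NoCKN replicate 3 the log2 fold change of Tnfsf10 was 0.49 (edgeR adjusted p = 0.0699), and without NoCKN replicate 1 it was 0.05 (edgeR adjusted p = 0.914).

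The same libraries were the extremes for most ligand genes. Library NoCKN replicate 1 was the lowest of the 6 for 8 of the 9 genes, Ltb being the exception, and CCL19 replicate 1 was the highest for 6 of them. Both held at once for 6 ligand genes, compared with 16.0% of all tested genes and with 54.6% of the 1785 tested genes whose CCL19 libraries all lay higher. The number of DESeq2 calls varied with the library left out. Without CCL19 replicate 1, DESeq2 called none of the 9 (and 0.922% of genes), with log2 fold changes in that fit of 0.33 for Cd40lg, 0.32 for Tnfsf11, 0.33 for Tnfsf8, 0.34 for Lta and 0.30 for Fasl, and without NoCKN replicate 1 it called Cd40lg alone (3.19% of genes). Without CCL19 replicate 2 it called Cd40lg and Tnfsf11 (1.54% of genes). Without CCL19 replicate 3 it called 7, adding Tnfsf14 and Tnf to its 5 (17.3% of genes), and without NoCKN replicate 2 it called the same 7 (11.7% of genes). Over the 6 fits that each left out a library, Cd40lg was called in 5, Tnfsf11 in 4, and Tnfsf8, Lta and Fasl in 3 each, with no value for Fasl in 1 fit. Without NoCKN replicate 3, DESeq2 called its 5 and Ltb (13.2% of genes). By edgeR, which called no ligand gene with all libraries, 6 passed without CCL19 replicate 3, namely the 5 that DESeq2 called and Tnfsf14, all higher (background 13.5%, 6.5% higher and 6.97% lower), and Tnfsf8 alone, higher, without NoCKN replicate 3 (background 4.32%, 1.98% higher and 2.34% lower). EdgeR without a low-count filter called 7 of the 9 higher and none lower (background 10.1%, with 5.05% higher and 5.01% lower). Given a robust prior, it called the 5 that DESeq2 called (background 4.53%, 2.29% higher and 2.25% lower). The lowest edgeR adjusted p was then 0.0441, against 0.0505 in the main fit.

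**Figure D2:**
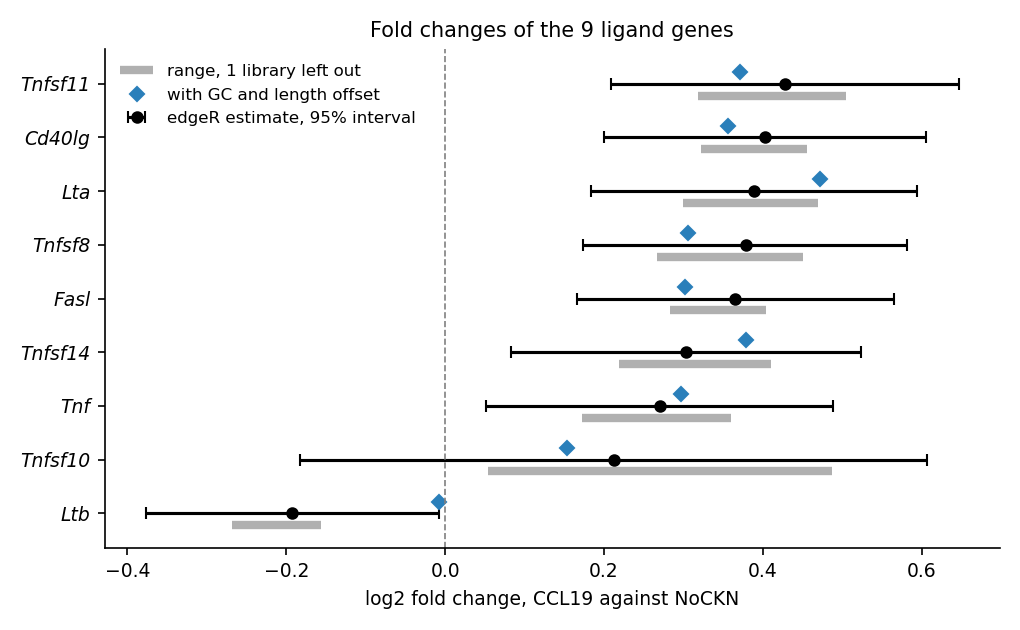
Log2 fold change of each ligand gene, CCL19 against NoCKN (horizontal axis), from edgeR with its 95% interval (black), the range of estimates when 1 library was left out (grey) and the estimate after the GC and length offset (blue). The black points lie between 0.21 and 0.43 for 8 genes and at -0.19 for Ltb, whose blue point lies at -0.01.

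Ratios of 2 ligands within a library do not depend on library scaling. The ratio of Lta to Ltb counts was 0.418, 0.377 and 0.334 in CCL19 replicates 1, 2 and 3 and 0.210, 0.265 and 0.283 in the NoCKN libraries. Every CCL19 library had the higher ratio, and the geometric means of 0.375 and 0.2504 differed by 1.497-fold (exact permutation test, 2-sided, p = 0.1, the smallest that 3 samples against 3 allow). Lta relative to Tnf was 0.435, 0.457 and 0.433 with CCL19 and 0.413, 0.402 and 0.407 without it, a 1.08-fold difference (exact permutation p = 0.1). The ratio of Tnfsf11 to Cd40lg was 0.349, 0.324 and 0.332 with CCL19 and 0.322, 0.338 and 0.326 without it, with overlapping groups (exact permutation p = 0.6). Adjusted over the 3 ratios by Benjamini-Hochberg, the exact permutation p-values were 0.15, 0.15 and 0.6. Of all counts assigned to the 9 genes after scaling, Ltb took 28.8 ± 2.31% with CCL19 and 37.0 ± 3.86% without (SD, n = 3), whereas Cd40lg took 15.4 ± 0.687% and 13.1 ± 0.713%.

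**Figure D3:**
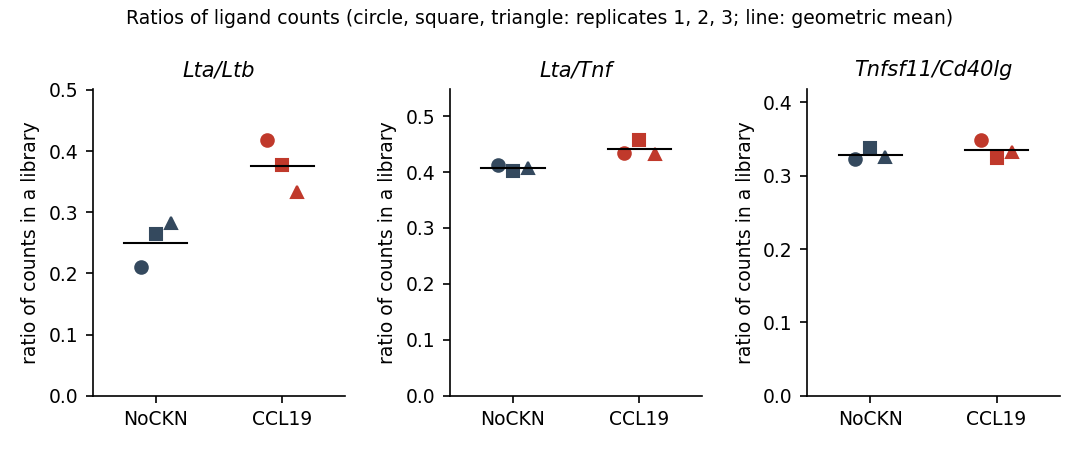
Ratio of the counts of 2 ligand genes in each library (vertical axis from 0), with the geometric mean of each group as a line. The Lta to Ltb ratio lay between 0.334 and 0.418 with CCL19 and between 0.210 and 0.283 without it, while the Tnfsf11 to Cd40lg ratios of the groups overlapped.

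Genes of high GC content tended to stand lower with CCL19. Across 11439 tested genes, Spearman's rho of the log2 fold change with the GC content of the longest transcript was -0.32, a value over genes and not over independent samples. Ltb, at 62.6% GC, lay in the highest of 10 GC classes, whose median log2 fold change was -0.16. With an offset that removed each library's trend with GC content and length, the fitted change of Ltb on the log2 scale was -0.01 ± 0.06 (SE; edgeR adjusted p = 0.946). Lta, at 55.7% GC, and Tnfsf14, at 55.5%, lay in a class with a median of -0.06, and with the offset their log2 fold changes were 0.47 and 0.38. Cd40lg, Tnfsf11, Tnfsf8 and Fasl, between 42.6% and 44.9% GC, lay in classes with medians of 0.05 and 0.08. With the offset their log2 fold changes were 0.36, 0.37, 0.31 and 0.30. DESeq2 with the offset called Cd40lg, Tnfsf11, Tnfsf8, Tnfsf14 and Lta higher, and Fasl missed the threshold (DESeq2 adjusted p = 0.051). Of 9221 genes with an adjusted p in that fit, 594 were called higher and 322 lower (background 9.93% in either direction). No ligand gene passed in edgeR with the offset, and neither did any other gene. The offset was added with earlier results in view, and the part of GC content in the lower Ltb level was not tested.

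**Figure D4:**
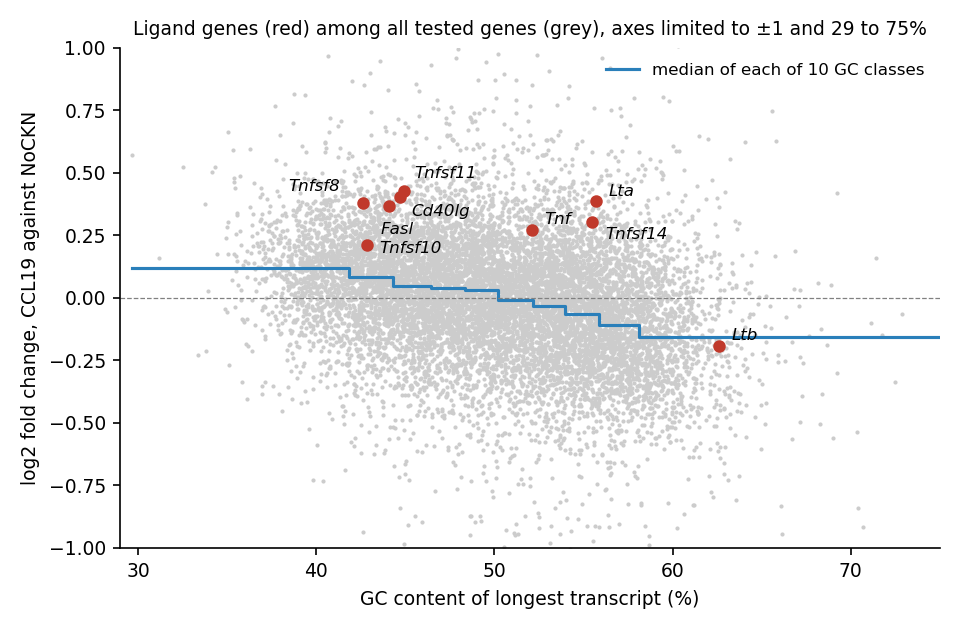
Log2 fold change (vertical axis) against the GC content of the longest transcript (horizontal axis) for the ligand genes (red) and the other tested genes (grey), with the median of each of 10 GC classes as a blue line; 47 of 11439 genes lie outside the axes. Ltb lies close to the median of its class, and the other 8 ligand genes lie above the medians of theirs.

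Several of these mRNAs carry AU-rich elements in the 3′ untranslated region (UTR), sequences through which proteins of the ZFP36 family and HuR control the decay of cytokine mRNAs. In GENCODE transcripts, Tnf had 8 copies of the pentamer ATTTA in 764 bases of 3′ UTR, a higher density than in 99.2% of 10859 tested genes. Tnfsf11 had 6 copies in 1131 bases, Lta 3 in 572, Cd40lg 2 in 455 and Tnfsf8 10 in 2799, and each of these 4 lay above at least 86.3% of genes in density. Tnfsf10 had 8 copies in 3998 bases, above 65.4% of genes in density. Fasl and Tnfsf14 had 1 copy each, and Ltb had none in 174 bases, as had 30.5% of genes. The 30 bases richest in the pentamer, shown in capitals, are given for Tnf, where copies overlap, and for Lta and Tnfsf8, where they stand apart.
Tnf: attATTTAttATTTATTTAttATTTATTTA
Lta: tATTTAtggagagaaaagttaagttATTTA
Tnfsf8: tATTTAtctttttctctttttcttcATTTA
No test set pentamer density against the fold change.

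Among 12 genes for proteins that bind such elements or otherwise set the stability of these mRNAs, DESeq2 called 1 higher and 1 lower (6.55% and 5.6% of all genes with an adjusted p), and edgeR called none. The median log2 fold change was 0.09. Zfp36l2, which promotes decay of AU-rich mRNAs, stood at 313, 304 and 308 CPM with CCL19 and at 476, 416 and 351 CPM without it, which is -0.43 ± 0.10 on the log2 scale (SE; edgeR adjusted p = 0.0505, DESeq2 adjusted p = 0.00249). Elavl1, which encodes the stabilising protein HuR, stood at 154 ± 8.25 and 128 ± 6.68 CPM (SD, n = 3; DESeq2 adjusted p = 0.0209). The groups did not overlap for either gene or for Tial1 (log2 fold change 0.18), which makes 2 of the 12 higher and 1 lower (15.3% and 14.5% of all tested genes). Without CCL19 replicate 1, without CCL19 replicate 2 or without NoCKN replicate 1, DESeq2 did not call Elavl1 (adjusted p between 0.0888 and 0.155).

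Of the receptors of these ligands, some were measurable in the same cells. The list held 11 genes, with Btla added as a partner of the herpesvirus entry mediator that binds none of the 9 ligands. Of these, 7 were tested, and Tnfrsf11a (RANK), Tnfrsf11b (its decoy osteoprotegerin), Tnfrsf8 (CD30) and Ltbr (the lymphotoxin beta receptor) were too low, at no more than 0.488 CPM in any library. Of the 7 tested, 5 had a log2 fold change above 0 and 2 below, with a median of 0.25. At an unadjusted edgeR p under 0.05, 4 stood higher, Btla among them (14.5% of all tested genes), and none lower (13%). DESeq2 called 1 higher and none lower (12.2% of all genes with an adjusted p, either direction). The gene called was Btla, an inhibitory receptor of the immunoglobulin family and no receptor of the 9 ligands, at 178, 152 and 153 CPM with CCL19 and 111, 127 and 130 CPM without it (log2 fold change 0.39 ± 0.09, SE; edgeR adjusted p = 0.0505, DESeq2 adjusted p = 0.00355). Btla was not called by DESeq2 without CCL19 replicate 1 (adjusted p = 0.0657). Fas, the receptor of FasL, averaged 29.3 ± 1.24 CPM in the CCL19 and 24.6 ± 1.77 CPM in the NoCKN libraries (SD, n = 3; edgeR adjusted p = 0.098), with groups that did not overlap. Of the 7 tested, 2 stood higher without overlap, Btla and Fas (15.3% of all tested genes). Tnfrsf14, which encodes the herpesvirus entry mediator itself, had a log2 fold change of -0.14 with overlapping groups.

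Of the adaptors and enzymes downstream of TNF receptors, all 26 listed were tested, 12 with a log2 fold change above 0 and 14 below, the median was -0.02 and the range ran from -0.30 to 0.22. Groups did not overlap for 4 higher and 5 lower (29.8% of all tested genes), and 2 stood higher and 4 lower at an unadjusted edgeR p under 0.05 (27.5% of all tested genes). DESeq2 called 1, Tnip1, lower (-0.25 on the log2 scale, DESeq2 adjusted p = 0.048), a partner of the ubiquitin-editing enzyme A20. With the GC and length offset the fitted value for Tnip1 was -0.14 (adjusted p = 0.302 in DESeq2), and DESeq2 did not call it without CCL19 replicate 1 or 2 or without NoCKN replicate 1 or 3. The genes without overlap included Cflar, which encodes the caspase-8 inhibitor FLIP (log2 fold change 0.22), and the TRAF genes Traf6 (0.19) and Traf5 (-0.24).

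Membrane ligands are released or cleared by proteases, some of which need inactive rhomboid proteins as partners. Of 7 genes listed for these proteases and partners, 6 were tested. DESeq2 called Sppl2b lower (-0.31 on the log2 scale, DESeq2 adjusted p = 0.0459), a protease that cleaves the membrane stub of TNF, and none higher (5.6% and 6.55% of all genes with an adjusted p). With the offset the fitted value for Sppl2b was -0.17 (adjusted p = 0.21 in DESeq2). DESeq2 called Sppl2b without NoCKN replicate 3 but in none of the other fits without a library that gave it a value. The sheddase gene Adam10 (log2 fold change 0.24) and Rhbdf1 (0.34, at under 2 CPM) stood higher in all 3 CCL19 libraries without passing. That makes 2 of the 6 higher without overlap, and 1, Sppl2b, was lower (15.3% and 14.5% of all tested genes). Adam17, which encodes the sheddase of TNF, stood at 92.3 ± 3.10 and 87.7 ± 3.16 CPM (SD, n = 3; edgeR adjusted p = 0.529).

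Other ligands of the superfamily were scarce. Of 9 listed, 2 were tested, Tnfsf4 (OX40 ligand) at 3.01 ± 0.259 CPM with CCL19 and 2.44 ± 0.642 CPM without, and Tnfsf9 (4-1BB ligand) at 9.08 ± 0.837 and 7.82 ± 1.32 CPM (SD, n = 3). Neither passed in edgeR (adjusted p = 0.378 and 0.35), and the groups overlapped for both. The other 7 had at most 0.661 CPM in any library.

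Per kilobase of exon (RPKM, CPM divided by the union exon length in GENCODE), the order of the ligand transcripts was the same in both groups. In the NoCKN libraries Ltb was the highest at 648 ± 56.9 RPKM, followed by Tnf at 287 ± 38.6, Cd40lg at 217 ± 21.99, Lta at 138 ± 16.8 and Tnfsf14 at 61.8 ± 8.42 RPKM (SD, n = 3). Tnfsf11 at 39.9 ± 4.89 and Tnfsf8 at 31.3 ± 4.40 RPKM came next and were the only neighbours whose ranges met in the NoCKN libraries. Fasl followed at 20.8 ± 2.11 and Tnfsf10 at 2.03 ± 0.663 RPKM. With CCL19 the ranges of all neighbours were apart, with Ltb at 567 ± 19.8, Tnf at 346 ± 27.9 and Cd40lg at 287 ± 26.3 RPKM. The closest pair there was Tnf and Cd40lg, whose lowest and highest libraries stood at 320.0 and 315 RPKM.

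The pattern of these genes over the 6 libraries was shared by many others. The genes whose log2 CPM followed Cd40lg most closely were A630089N07Rik, Sdad1 and Mthfd1l (Pearson's r between 0.9978 and 0.9983 over 6 libraries, given as a description). Tnfsf11 was followed by Alg8 and Ndufaf1, and Lta by Utp25, Cstf2 and Polr2d. Of 8715 genes compared, 642 reached an r of 0.95 with Cd40lg, 539 with Tnfsf11 and 561 with Lta.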

How the data were processed

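Messenger RNA of 3 CCL19 and 3 NoCKN samples was compared. The submitters' processing notes name STAR 2.5, featureCounts 1.5.0-p1, DESeq2 1.28.1 and the assembly mm10, and the labels' protocols an Illumina TruSeq kit. The authors deposited raw read counts per gene, whole numbers without normalization, per the file headers, and their own list of genes marked as higher or lower. The sources used here do not state the strand setting, the annotation release or how multiply mapped reads were treated.

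Sample titles gave each library's group and replicate number. The main test was edgeR 4.0.16 (quasi-likelihood, TMM, filterByExpr) in R 4.3.3, fitted over the whole table, with Benjamini-Hochberg adjustment over all 11666 tested genes and a threshold of 0.05. Alternatives were DESeq2 1.42.0 (independent filtering at 0.1), limma 3.58.1 (voom), other scalings and filters, a robust prior, a replicate block, each library left out, and, added after earlier results were known, an offset for GC content and length (natural splines of 5 degrees of freedom, 98.1% of tested genes) and DESeq2 without each library. The fits were checked on simulated counts. Ratios used a prior count of 2 and an exact permutation test. GC content, exon lengths and UTRs came from GENCODE M21 of the same assembly, promoters from RefSeq (8 of 9 genes matched).

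The members and gene lists were chosen with earlier results of these data known. All 9 members are described. From each companion list, up to 4 genes of smallest edgeR p among those with groups that do not overlap are named, and genes that start within 50 kb of Tnf. The patterns compared are those of genes with a mean log2 CPM (prior count 2) of at least 3, and an item that this rule names is not reported here. Other names (Adam17, Tnfrsf14, genes too low to test) were chosen after their values were seen. Figures were drawn with matplotlib 3.10.9.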

Additional observations from a re-analysis of the deposited data

How the results depend on the processing

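The 9 ligand genes and 12 named companion genes kept the direction of their fold change under every alternative that gave them an adjusted p; 93 of these values passed the threshold and 332 did not, as in the main edgeR test. Ltb stood at -0.01 with the offset against -0.19. Over all genes, edgeR called 0, 1600 with no filter on low counts and 529 with a robust prior, and DESeq2 called 1168, or 916 after the added GC and length offset. The ligand genes among them numbered 0, 7, 5, 5 and 5 in the same order. With 1 library left out, the number of genes called lay between 0 and 1599 by edgeR and, in DESeq2 fits added after the data were seen, was 55, 123 and 1704 without CCL19 replicates 1, 2 and 3 and 105, 1010 and 1258 without NoCKN replicates 1, 2 and 3. That of ligand genes lay between 0 and 6 by edgeR and was 0, 2 and 7 and then 1, 7 and 6 by DESeq2 in the same order. The cause of these differences was not tested. With DESeq2's size factors, a filter of 1 CPM in 3 libraries, limma-voom or the offset in edgeR, 0 genes were called. The log2 difference of the Lta to Ltb ratio, 0.58, lay between 0.45 and 0.67 with a library left out, and that of Lta to Tnf, 0.12, between 0.09 and 0.13. That of Tnfsf11 to Cd40lg, 0.03, lay between -0.0043 (without CCL19 replicate 1) and 0.0487. With a replicate block edgeR called 0 genes and 0 ligand genes (lowest adjusted p = 0.162, 2632 genes at an unadjusted p under 0.05), and the paired differences of the 3 ratios were 0.58, 0.12 and 0.03 (sign-flip permutation, whose smallest p is 0.25). Deviations from the group mean correlated at -0.164, 0.081 and -0.021 for same-numbered samples and between -0.214 and 0.217 for differently numbered ones. Centred within groups of 3, these values cannot show whether the samples were paired. The main test treated them as unpaired.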
